A study of Homo sapiens with 64 samples.

Results

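The human line SUDHL2, sampled 1 h after the addition of DMSO alone (3 arrays), was compared with SUDHL2 that received no treatment (3 arrays). These 6 arrays were chosen by their titles from a series of 64, and every gene detected in the treated lines was tested. SUDHL2 (written SU-DHL-2 in the untreated panel of the same series) is an established diffuse large B-cell lymphoma line of the activated B-cell type. DMSO is the solvent in which OTX015, an inhibitor of BET bromodomain proteins and the drug of the wider study, is commonly dissolved, so the comparison holds what handling, medium and vehicle changed in the absence of the drug. The wider study holds 42 arrays of SUDHL2 and SUDHL6 (a germinal centre type line) in 14 groups of 3, sampled without treatment or with DMSO or OTX015, and 1 array for each of 22 untreated lines. The labels give neither the dose of DMSO, nor whether the not treated cells were moved, spun or given fresh medium alongside the DMSO cells, nor whether the 3 arrays of a group came from separate cultures. The solvent and the handling therefore cannot be told apart. The p-values rest on the spread between arrays within a group, pooled over the 42 arrays in 14 groups and not these 6 alone. That spread may be technical.

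B cells answer a change of medium, temperature, density or solvent within minutes by transcribing immediate early genes, whose promoters are already loaded with serum response factor, CREB-family or AP-1 proteins and need no new protein synthesis. Their products include transcription factors (FOS, JUN, EGR and NR4A proteins), secreted signals such as TNF, and phosphatases that switch the signalling off again. Stress pathways act on a similar time scale: heat shock factor induces chaperones, the integrated stress response raises ATF4 and its targets, and NRF2 raises antioxidant enzymes. Short-lived transcripts, among them MYC and several cytokine mRNAs, can fall as fast once their synthesis slows.

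The promoter sequences of the leading rises are shown with the known DNA elements searched for in them. RefSeq promoters (build GRCh38.p14, the 250 bases before the annotated start, 5′ to 3′ on the strand of the gene) were found for 9 of the 12 genes with the largest rises and for 11 of the 12 with the largest falls. CD69 and NR4A2 are named without one. The first 6 matched rises are printed, with capitals marking every match on either strand to the searched motifs: the cAMP response element TGACGTCA and its shorter core TGACG, AP-1 TGANTCA, a loose NF-kB motif, the heat shock element, the E-box CACGTG, the CArG box of serum response factor and the EGR motif. Overlapping matches merge into a single run of capitals.
HSPA6, chr1:161524290-161524539, plus strand: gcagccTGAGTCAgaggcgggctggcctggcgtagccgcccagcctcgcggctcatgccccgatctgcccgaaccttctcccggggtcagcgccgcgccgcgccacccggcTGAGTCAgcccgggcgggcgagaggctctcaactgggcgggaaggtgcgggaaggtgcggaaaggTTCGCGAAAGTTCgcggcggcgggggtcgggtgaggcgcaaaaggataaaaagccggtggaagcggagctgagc
PPP1R15A, chr19:48872171-48872420, plus strand: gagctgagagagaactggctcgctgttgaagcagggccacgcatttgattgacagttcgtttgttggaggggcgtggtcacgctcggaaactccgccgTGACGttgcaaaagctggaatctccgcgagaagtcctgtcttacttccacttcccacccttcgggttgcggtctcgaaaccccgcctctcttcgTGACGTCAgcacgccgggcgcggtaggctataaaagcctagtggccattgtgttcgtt
JUN, chr1:58784048-58784297, minus strand: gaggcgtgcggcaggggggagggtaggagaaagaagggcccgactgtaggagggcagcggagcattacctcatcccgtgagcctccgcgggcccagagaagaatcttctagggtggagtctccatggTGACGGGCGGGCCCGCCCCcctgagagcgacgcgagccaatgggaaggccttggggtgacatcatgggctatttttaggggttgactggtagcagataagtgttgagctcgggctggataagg
TNF, chr6:31575315-31575564, plus strand: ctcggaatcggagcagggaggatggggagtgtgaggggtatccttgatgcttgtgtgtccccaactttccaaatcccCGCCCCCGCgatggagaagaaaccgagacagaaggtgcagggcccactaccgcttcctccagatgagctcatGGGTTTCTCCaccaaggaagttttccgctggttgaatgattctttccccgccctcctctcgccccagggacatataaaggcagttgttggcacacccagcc
EGR1, chr5:138465229-138465478, plus strand: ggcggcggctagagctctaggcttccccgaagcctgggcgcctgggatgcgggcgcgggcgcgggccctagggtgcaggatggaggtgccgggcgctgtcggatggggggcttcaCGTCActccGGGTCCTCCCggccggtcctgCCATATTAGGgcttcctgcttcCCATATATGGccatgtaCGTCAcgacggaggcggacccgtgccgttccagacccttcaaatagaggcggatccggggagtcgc
ATF3, chr1:212565157-212565406, plus strand: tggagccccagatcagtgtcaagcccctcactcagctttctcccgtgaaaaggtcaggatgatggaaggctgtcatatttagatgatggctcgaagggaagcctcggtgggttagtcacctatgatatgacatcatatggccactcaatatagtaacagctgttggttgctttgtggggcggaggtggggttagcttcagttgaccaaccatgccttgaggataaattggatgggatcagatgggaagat
HSPA6 held 2 AP-1 matches, which begin 244 and 139 bases before the start, and 1 heat shock element that begins 74 bases before it. PPP1R15A held the full cAMP response element, beginning 58 bases before the start, and EGR1 held CArG boxes beginning 105 and 83 bases before it, besides TGACG and NF-kB letters. TNF held the NF-kB letters, beginning 101 bases before the start, and an EGR match at 173. JUN held a TGACG core 123 bases before the start, run together with GC-rich NF-kB letters, and ATF3 held no match in the window printed. A single annotated start was used for each gene, so promoters at any other start were not searched. Among all 27305 promoters of the table, the heat shock element was present in 0.439%, the CArG box in 1.14%, the full cAMP response element in 1.77%, EGR in 5.3%, the E-box in 6.49%, AP-1 in 6.6%, TGACG in 21.7% and the loose NF-kB letters in 53.7%. Among the promoters of tested genes the loose NF-kB letters were present in 67.3% and TGACG in 29.3%. The NF-kB letters were present in 5 of the 9 matched rises and 9 of the 11 matched falls, TGACG in 4 rises and 3 falls, AP-1 in 2 rises and 1 fall, EGR in 1 of each, the E-box in 1 fall, and the heat shock element, the CArG box and the full cAMP response element in 1 rise each. A match describes letters and is not a measured binding site.

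The largest falls include MIR155HG, the host transcript of a microRNA that targets many mRNAs of activated B cells. The array measured the host transcript, not the mature microRNA, whose RefSeq sequence is shown for the reader to see what the locus encodes (chr21:25573983-25574006, plus strand, seed bases 2 to 8 in capitals).
hsa-miR-155-5p: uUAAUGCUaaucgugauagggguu

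Every DMSO array was dimmer than every not treated array. The median raw signal was 96.35 to 102 on the DMSO arrays, against 105.7 to 114.1 on the not treated arrays, and 36.79 to 38.83% of probes were detected with DMSO, against 39.84 to 41.28% without treatment. Pairs of arrays correlated at 0.988 to 0.993 within DMSO, at 0.995 within not treated and at 0.985 to 0.989 between the groups. All 6 correlated more closely with the panel array of SU-DHL-2 (0.965 to 0.971) than with that of SU-DHL-6 (0.878 to 0.888). Of 6 B-cell markers measured, 5 were detected on all 6 arrays and PAX5 on none. All 5 markers of the activated type were detected. Of 5 markers of the germinal centre type, LMO2, MYBL1 and BCL6 were detected on all 6 arrays, and MME and SERPINA9 on none. Of markers of other cells, CD3E, NKG7, CSF1R, COL1A1, COL1A2 and KRT19 were detected on none of the 6 arrays, while CD3D, CD14, CD68 and EPCAM were detected on all and none of these passed the test. The slide of an array was inferred from the number that opens its array identifier. By that number the arrays lay on 3 slides. The middle slide held DMSO replicates 1 and 2 with not treated replicates 2 and 3. DMSO replicate 3 and not treated replicate 1 each lay on another. Counts within the shared slide are given beside the main lists.

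Between the DMSO 1 h and the not treated arrays, 820 of 13399 genes differed (6.12% of those tested) at an adjusted p under 0.05 by limma with Benjamini-Hochberg adjustment. Of these, 469 rose (3.5%) and 351 fell (2.62%). The changes were mostly small, with a median of 0.56 among the rises and -0.55 among the falls on the log2 scale, and 48 genes moved by at least 2-fold (35 rose and 13 fell). The 3 DMSO arrays lay wholly above or below the 3 not treated arrays in 813 of the called genes. The share among all genes tested was 29.4% (16.1% above and 13.3% below). The calls were made on these same arrays, so this separation follows largely from their choice and is no separate evidence. With the slide as a block 839 genes passed (455 rose, 384 fell). Within the shared slide, with 2 arrays against 2, 456 of the 13399 genes passed (275 rose, 181 fell). Counts of list members within the shared slide stand against these lower totals, not against those of the main comparison. Scaling each array to its 75th percentile gave 488 rises, near the number reported, and more falls (663), which put the share of rises among the calls at 42.4%, against 57.2% as reported. The median over all genes was 0.04 under that scaling and 0.01 as reported. Leaving out single arrays also cut the count by more than 1.5 times: it was 471 without DMSO replicate 1, 539 without not treated replicate 1, 456 without not treated replicate 2 and 449 without not treated replicate 3. A bulk array cannot tell fewer cells of a type from less RNA per cell.

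**Figure D1:**
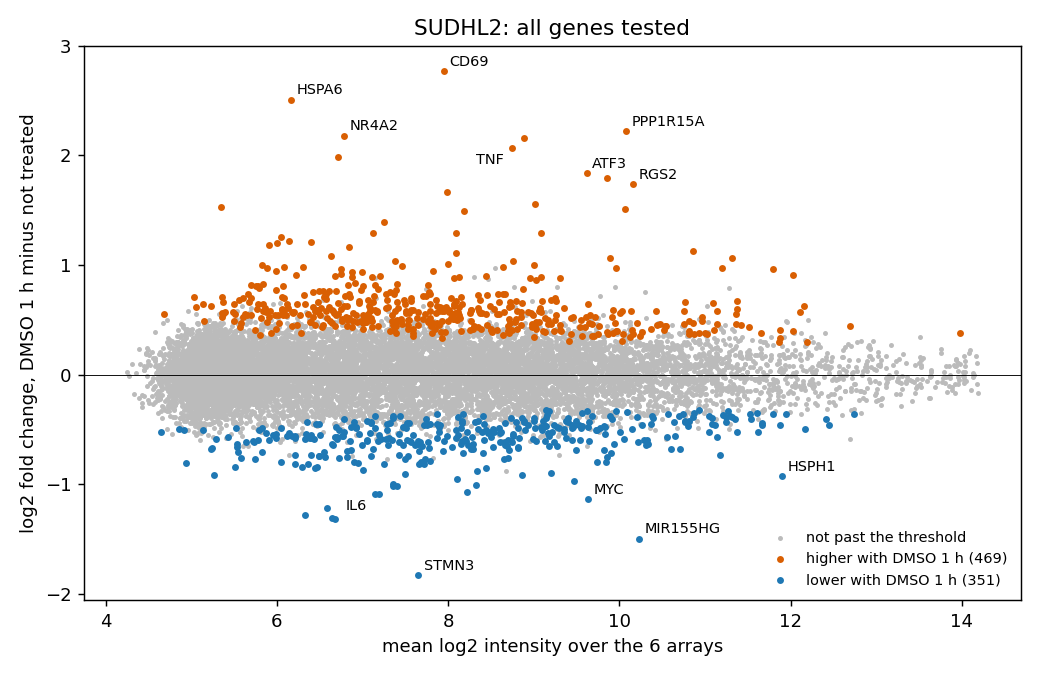
Each point is a gene, with its mean log2 intensity over the 6 arrays on the x axis and the log2 fold change of DMSO 1 h minus not treated on the y axis. The 469 genes that rose reach 2.77 (CD69), and the 351 that fell reach -1.83 (STMN3).

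Several immediate early genes were among the largest rises. Of 29 measured members of a list of such genes, 11 rose and none fell, and the median of the list was 0.32, against 0.01 over all genes. JUN, the AP-1 subunit, read 10.01, 10.34 and 9.56 log2 intensity on the DMSO arrays, against 7.81, 7.76 and 7.86 on the not treated arrays. EGR1, a zinc finger factor induced through serum response factor, read 7.87, 8.16 and 7.09 with DMSO, against 5.71, 5.69 and 5.74 without treatment. NR4A2, an orphan nuclear receptor, read 7.87, 8.04 and 7.72 with DMSO, against 5.69, 5.64 and 5.76 without. In each of the 3 the groups were far apart, and the DMSO arrays differed among themselves more than the not treated arrays did. JUN was 4.47-fold higher (log2 2.16 ± 0.31 SE, adjusted p = 1.2e-05), EGR1 3.98-fold higher (1.99 ± 0.32, adjusted p = 7.2e-05) and NR4A2 4.54-fold higher (2.18 ± 0.18, adjusted p = 7.6e-12).

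PPP1R15A and ATF3 are both immediate early and stress induced. PPP1R15A, the phosphatase subunit that reverses eIF2 alpha phosphorylation, read 11.25, 11.33 and 10.99 with DMSO, against 8.92, 8.95 and 9.04 without treatment, a 4.66-fold rise (log2 2.22 ± 0.21, adjusted p = 9.8e-10). ATF3, a CREB-family repressor, read 10.68, 10.52 and 10.41 with DMSO, against 8.59, 8.8 and 8.72 without, a 3.57-fold rise (1.84 ± 0.21, adjusted p = 8.5e-08). FOS, the partner of JUN in AP-1, read 6.05, 6.23 and 6.06 with DMSO, against 4.58, 4.22 and 4.96 without. FOS was not well above background on any not treated array, so its rise is given as a bound of at least 1.72-fold (adjusted p = 2.2e-05). Such a bound sets the mean of the detected group against the dimmest signal called detected on each array of the other. It holds only for the background correction used here. The remaining calls of the list were FOSB, KLF6, SRF, JUND and CSRNP1, which rose by 0.61 to 1.18 on the log2 scale and are named after their values were seen, to complete the list. Its other 18 members did not pass, with values of -0.18 (EGR4) to 0.58 (ZFP36), and included JUNB at -0.14 and KLF2 at -0.01. Within the shared slide 10 of the 29 rose.

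**Figure D2:**
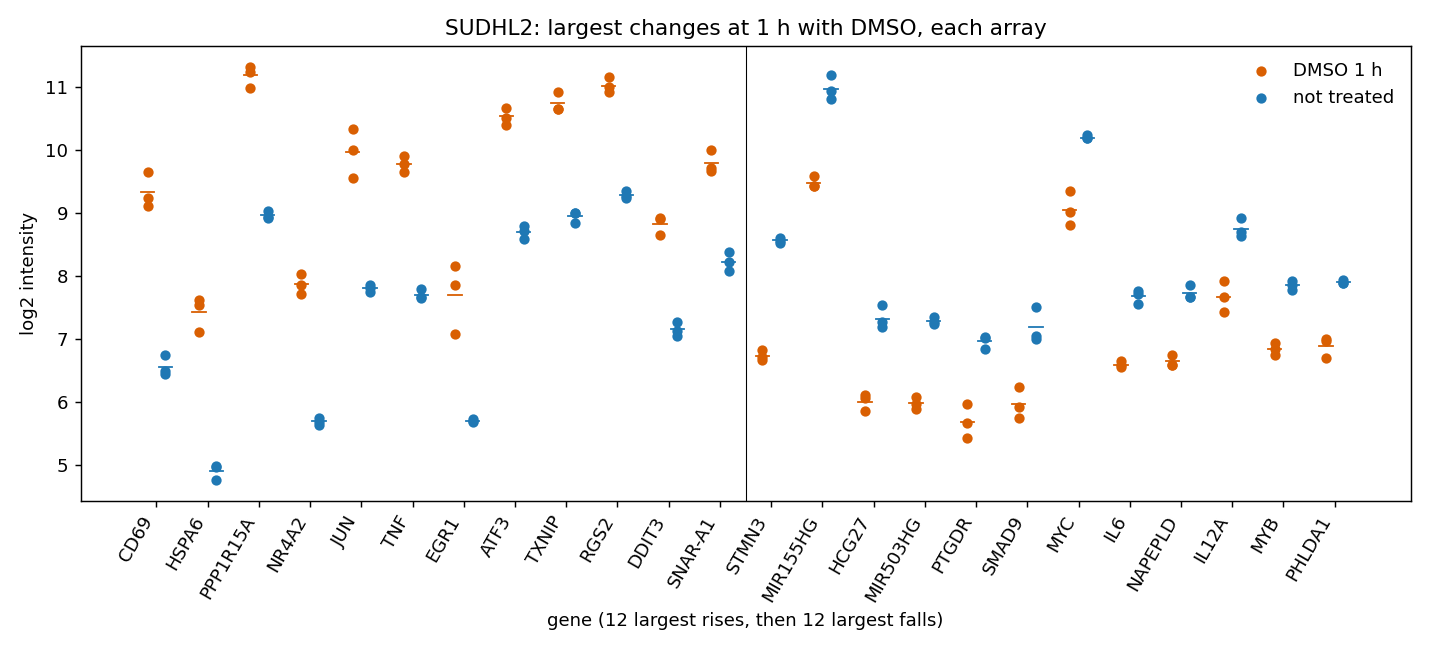
Log2 intensity on each array for the 12 genes with the largest rises, then the 12 with the largest falls. Orange points on the left of each gene are the 3 DMSO 1 h arrays, blue points on the right the 3 not treated arrays, and short lines the group means. The groups do not overlap in any of the 24 genes, which was a condition of their choice, and CD69 (9.34 with DMSO, 6.57 without treatment) has the widest gap.

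Among 20 measured MAP kinase phosphatases and regulators of G-protein signalling, which limit receptor signals, 6 rose, 2 fell and 12 did not pass (median 0.21). RGS2, which shortens signalling through Gq-coupled receptors, read 11.16, 11.01 and 10.92 with DMSO, against 9.28, 9.35 and 9.25 without treatment, and RGS1, which limits B-cell migration to chemokines, read 10.68, 10.81 and 10.97 with DMSO, against 9.35, 9.28 and 9.3 without. RGS2 was 3.34-fold higher (1.74 ± 0.12, adjusted p = 9e-14) and RGS1 2.84-fold higher (1.51 ± 0.3, adjusted p = 0.00096). DUSP1, the nuclear MAP kinase phosphatase, was 2.45-fold higher (1.29 ± 0.33, adjusted p = 0.011), a call that ended within the shared slide (adjusted p = 0.084), and DUSP5, which acts on ERK, was 1.86-fold higher (0.9 ± 0.15, adjusted p = 0.00011). DUSP2, a phosphatase of the same family, fell by 0.51 (adjusted p = 0.015). Within the shared slide 3 of the list rose and none fell.

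CD69, on chromosome 12, had the largest rise of the genes tested. This early activation antigen, a membrane lectin that holds lymphocytes in tissue, read 9.12, 9.24 and 9.65 with DMSO, against 6.75, 6.5 and 6.45 without treatment, and was 6.82-fold higher (2.77 ± 0.44, adjusted p = 5.3e-05). Its other detected probe gave 2.05. Of 27 measured activation and adhesion genes, 5 rose and none fell (median 0.24), and within the shared slide 3 rose. The costimulatory ligand CD86 was 1.44-fold higher (0.53 ± 0.11, adjusted p = 0.0015), but the mean of its 3 probes did not pass (adjusted p = 0.78), one of them being at -0.18. CD83 (0.59, adjusted p = 0.014), the adhesion ligand CD58 (0.5, adjusted p = 0.029) and the receptor chain IL10RA (0.53, adjusted p = 0.046) also rose, and each lost its call under 4 to 8 of the 20 alternatives, with adjusted p up to 0.078, 0.22 and 0.25.

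Cytokine genes did not move together. Of 22 measured, 1 rose and 2 fell (median 0.13), with the same counts within the shared slide. TNF, the inflammatory cytokine, read 9.91, 9.78 and 9.65 with DMSO, against 7.8, 7.68 and 7.65 without treatment, and was 4.21-fold higher (2.07 ± 0.16, adjusted p = 1.3e-12). IL6, a growth factor for plasma cells and an NF-kB target, read 6.59, 6.56 and 6.65 with DMSO, against 7.57, 7.77 and 7.72 without. IL12A, a subunit of IL-12 and IL-35, read 7.44, 7.68 and 7.93 with DMSO, against 8.64, 8.92 and 8.7 without. Each of these falls left the groups apart by more than the spread within them: IL6 fell by 1.09 ± 0.14 (adjusted p = 7.7e-07) and IL12A by 1.07 ± 0.17 (adjusted p = 5.5e-05). IL10, the autocrine cytokine of activated-type lymphomas, averaged 12.18 ± 0.24 with DMSO and 12.06 ± 0.06 without treatment (SD, n = 3 each) and did not pass (0.13, adjusted p = 0.73). Its sign turned to -0.13 when its probes were averaged. CXCL8, a neutrophil chemokine named after its values were seen, did not pass by the probe that stands for it (0.57, adjusted p = 0.057). Its other probe read 8.05, 8.43 and 8.52 with DMSO, against 6.49, 6.43 and 6.4 without treatment (1.89 ± 0.16, adjusted p over all probes = 5.7e-11).

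Genes of the NF-kB pathway, which is active in this type of lymphoma, moved in both directions and by little. Of 21 measured subunits and feedback inhibitors, 1 rose and 2 fell (median 0.07), and within the shared slide none rose and 1 fell. NFKBIA, the inhibitor that NF-kB itself induces, averaged 13.09 ± 0.16 with DMSO and 13.13 ± 0.05 without treatment (SD, n = 3 each), a difference of -0.03 ± 0.18 (adjusted p = 0.95) whose sign turned to 0.02 without DMSO replicate 1. NFKBID rose by 0.54 (adjusted p = 0.012), and NFKBIB and TNIP3 fell by 0.45 and 0.53 (adjusted p = 0.049 and 0.037). These 3 calls ended under 3, 8 and 5 of the alternatives, with adjusted p up to 0.18, 0.32 and 0.18. The Toll-like receptor and MYD88 pathway had 2 rises among 23 members (8.7%), near the 6.12% called among all genes tested. These were the ubiquitin ligase TRAF6 (0.61, adjusted p = 0.00088) and the paracaspase MALT1 (0.5, adjusted p = 0.018). The call of MALT1 was lost under 5 alternatives (adjusted p up to 0.51), and its other detected probe gave -0.16. Within the shared slide 1 of the 23 rose.

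Heat shock genes split, with HSPA6 rising while most calls of the list were falls. HSPA6, a strictly inducible HSP70 chaperone, read 7.62, 7.55 and 7.11 with DMSO, against 4.77, 4.98 and 4.99 without treatment. It was not well above background on any not treated array and was at least 4.28-fold higher with the background correction used here (adjusted p = 4.5e-16). Its other detected probe gave 0.43 on the log2 scale and did not pass. Of the 21 members, 1 rose and 7 fell, with a median of -0.32, and within the shared slide 1 rose and 6 fell. HSPH1, an HSP110 exchange factor for HSP70, read 11.33, 11.36 and 11.63 with DMSO, against 12.31, 12.53 and 12.26 without, and fell by 0.93 ± 0.12 (adjusted p = 7.4e-07). The cochaperone CHORDC1 fell by 0.65 ± 0.14 (adjusted p = 0.0027). HSPA1B fell by 0.63 ± 0.18 (adjusted p = 0.032) and lost its call under 6 alternatives (adjusted p up to 0.19). Its value may hold signal from its near-identical copy HSPA1A. HSPA1A is on the array, but no probe of it was detected on enough arrays to be tested. HSF1, the heat shock transcription factor, did not pass at -0.33.

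Of 19 measured genes of the unfolded protein response of the endoplasmic reticulum, 7 rose, none fell and 12 did not pass (median 0.27). Within the shared slide 4 of the list rose. DNAJB9, a cochaperone of BiP, read 8.75, 8.93 and 9.11 with DMSO, against 7.48, 7.41 and 7.44 without treatment, and was 2.81-fold higher (1.49 ± 0.16, adjusted p = 3.7e-08). HSPA5, which encodes BiP, was 1.77-fold higher (0.82 ± 0.13, adjusted p = 6.3e-05). DNAJC3 and HSP90B1 rose by 0.63 and 0.6 (adjusted p = 0.0094 and 0.013), and lost the call under 3 and 4 alternatives (adjusted p up to 0.12 and 0.11). XBP1, the transcription factor of this response and of plasma cells, rose by 0.55 ± 0.11 (adjusted p = 0.00088).

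The list of ATF4 targets of the integrated stress response had 7 rises, 1 fall and 12 members that did not pass (median 0.31), with 7 rises and 1 fall within the shared slide too. DDIT3 (CHOP) read 8.92, 8.91 and 8.65 with DMSO, against 7.13, 7.05 and 7.28 without treatment, and was 3.19-fold higher (1.67 ± 0.29, adjusted p = 0.00019). ATF4 itself was 1.88-fold higher (0.91 ± 0.1, adjusted p = 1.7e-08), although 1 of its 3 probes gave 0.05, and its target TRIB3 was 1.85-fold higher (0.89 ± 0.13, adjusted p = 7.1e-06). DDIT4, an inhibitor of mTORC1 in the same list, read 9.43, 9.34 and 9.54 with DMSO, against 10.18, 10.34 and 10.2 without, and fell by 0.8 ± 0.18 (adjusted p = 0.0047).

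Of 18 measured oxidative stress and NRF2 genes, 6 rose and 1 fell (median 0.2), and within the shared slide 5 rose and 1 fell. TXNIP, which binds thioredoxin and limits glucose uptake, read 10.66, 10.93 and 10.65 with DMSO, against 8.85, 9.01 and 9.01 without treatment, and was 3.46-fold higher (1.79 ± 0.23, adjusted p = 1.1e-06). The haem-degrading enzyme HMOX1 read 9.9, 9.88 and 9.41 with DMSO, against 8.54, 8.44 and 8.35 without, and was 2.44-fold higher (1.29 ± 0.2, adjusted p = 3e-05). SRXN1, which repairs peroxiredoxins, rose by 0.72 ± 0.12 (adjusted p = 0.00015). NQO1, a quinone reductase, rose by 0.98 ± 0.16 (adjusted p = 7.6e-05) by its brightest probe, while its other probe gave -0.11 and the mean of both missed the threshold (adjusted p = 0.053). NFE2L2, which encodes NRF2, did not pass at 0.22.

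Metal response genes had the highest median of the 31 lists. Of 11 measured, 3 rose and none fell, and the median was 0.51. With the slide as a block 6 rose and the median was 0.74. The member at the median, MT1X, did not pass (adjusted p = 0.3). Its DMSO replicate 3 read 9.2, below the not treated arrays (9.33 to 9.47). On that array MT2A, MT1G and MT1H read 9.66, 7.62 and 6.37, close to their highest not treated arrays (9.6, 7.49 and 6.35). The 3 called genes lay clear of the not treated arrays there. The zinc exporter SLC30A1 was 2.12-fold higher (1.08 ± 0.18, adjusted p = 0.00012). The metallothioneins MT1F (0.9, adjusted p = 0.017) and MT1E (0.74, adjusted p = 0.0056) rose, and lost the call in 4 and 1 of the fits that left out an array (adjusted p up to 0.084 and 0.061). Metallothionein genes are close paralogs, so each value may hold signal from the others.

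FOXO-regulated and growth factor withdrawal genes had 4 rises and 1 fall among 21 members (median -0.04, and 0.13 under 75th percentile scaling), and 3 rises within the shared slide. Besides TXNIP these were TSC22D3 (GILZ, induced by FOXO factors and glucocorticoids; 1.21 ± 0.2, adjusted p = 0.00011), YPEL5 (0.86 ± 0.18, adjusted p = 0.0018), YPEL3 (0.74, adjusted p = 0.04) and the fall of CITED2 (-0.62, adjusted p = 0.049). YPEL3 and CITED2 lost their calls under 8 and 12 alternatives, with adjusted p up to 0.16 and 0.18.

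MYC fell, as did 11 other members of a list of 28. MYC, the growth-promoting transcription factor, read 9.02, 9.35 and 8.81 with DMSO, against 10.19, 10.19 and 10.24 without treatment, a log2 fold change of -1.14 ± 0.22, or 0.453 of the not treated level (adjusted p = 0.00079). Its other detected probe gave -0.95. Of 28 measured genes of the MYC and MAX network and of ribosome biogenesis, 12 fell, 1 rose and 15 did not pass, with a median of -0.34. Within the shared slide 8 fell and 1 rose. The riser was MXD4, which competes with MYC for MAX, at 7.88, 7.7 and 7.71 with DMSO, against 6.51, 6.47 and 6.44 without (1.29 ± 0.22, adjusted p = 0.00019). MYBBP1A, a nucleolar regulator of rRNA synthesis, was not well above background on any DMSO array and was at least 1.43-fold lower (adjusted p = 0.0057). CAD, the first enzyme of pyrimidine synthesis, fell by 0.8 ± 0.24 (adjusted p = 0.031), and lost the call under 6 alternatives (adjusted p up to 0.33). The other 9 falls of the list were of 0.4 to 0.77.

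The 2 largest falls were STMN3 and MIR155HG. STMN3, a stathmin that destabilises microtubules, read 6.67, 6.83 and 6.72 with DMSO, against 8.56, 8.61 and 8.53 without treatment (-1.83 ± 0.15, adjusted p = 7.2e-12). MIR155HG read 9.43, 9.59 and 9.44 with DMSO, against 10.94, 10.82 and 11.19 without (-1.5 ± 0.18, adjusted p = 2.8e-07). In both the groups were separated by over 1 log2 unit with no overlap. MIR503HG, another microRNA host transcript, fell by 1.31 ± 0.14 (adjusted p = 2.9e-08), and HCG27, a noncoding gene of the HLA region, by 1.32 ± 0.33 (adjusted p = 0.0095), a call lost under 3 alternatives (adjusted p up to 0.059).

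Other large falls were of varied function. PTGDR, a prostaglandin D2 receptor, read 5.67, 5.44 and 5.97 with DMSO, against 7.04, 6.85 and 7.02 without treatment (-1.28 ± 0.18, adjusted p = 5.8e-06). SMAD9, a transducer of BMP signals, fell by 1.22 ± 0.19 (adjusted p = 6.3e-05) and NAPEPLD, a phospholipase that makes lipid amides, by 1.09 ± 0.14 (adjusted p = 1.4e-06). MYB, the transcription factor of lymphoid progenitors, fell by 1.02 ± 0.16 (adjusted p = 4.2e-05). PHLDA1 fell by 1.02 ± 0.16 (adjusted p = 7.2e-05), its other detected probe giving -0.31. Among the rises, the noncoding SNAR-A1 belongs to a family of near-identical copies, so its 2.95-fold rise (1.56 ± 0.23, adjusted p = 1.9e-05) may be shared among them.

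Of 18 measured genes of activated B cells and plasma cells, 1 rose (XBP1), 3 fell and 14 did not pass (median -0.12). Within the shared slide XBP1 rose and none fell. IRF4, on which activated-type lymphomas depend, read 8.43, 8.5 and 8.54 with DMSO, against 9.08, 9.17 and 9.19 without treatment, and fell by 0.66 ± 0.2 (adjusted p = 0.034). PRDM1 (Blimp-1) fell by 0.72 ± 0.2 (adjusted p = 0.024) and BATF3 by 0.56 ± 0.14 (adjusted p = 0.0077). The 3 falls lost their calls under 7, 4 and 2 alternatives, with adjusted p up to 0.12, 0.19 and 0.081. BCL6, the germinal centre repressor, averaged 9.77 ± 0.41 with DMSO and 10.25 ± 0.05 without treatment (SD, n = 3 each) and did not pass (-0.48, adjusted p = 0.11); DMSO replicate 3 was the lowest of its 6 arrays at 9.3. Of 25 B-lineage genes only CD79B, a chain of the B-cell receptor, rose (0.44 ± 0.09, adjusted p = 0.0024), a call lost under 75th percentile scaling and when its probes were averaged (adjusted p up to 0.09).

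The remaining lists had few calls or none, though in some the share called was above the 6.12% of all genes tested. The share was 15.4% for hypoxia and glycolysis, 15% for cholesterol and fatty acid, 14.8% for small RNA and 9.52% for JAK-STAT genes. It was 4.35% for interferon-stimulated genes, and 4.76% both for p53 targets and cell cycle inhibitors and for BET and P-TEFb genes. Of 26 hypoxia and glycolysis genes, 3 rose (ALDOC by 0.63, PFKL by 0.56 and ALDOA by 0.38) and hexokinase HK2 fell by 0.65, of which all but ALDOC lost their calls under 2 to 11 alternatives. Of 20 cholesterol and fatty acid genes, SC5D and STARD4 rose by 0.7 and 0.66 and ACACA fell by 0.4, all lost under 3 to 6 alternatives. STAT3 fell by 0.64 and STAT5B rose by 0.42 among 21 JAK-STAT genes, IRF7 rose by 0.43 among 23 interferon-stimulated genes and GADD45A by 0.48 among 21 p53 targets and cell cycle inhibitors, and these 4 calls ended under 10 to 14 alternatives. Of 27 small RNA genes, RPPH1 rose by 0.81 and SNORA61, SNORA73A and SNORA73B fell by 0.61, 0.53 and 0.51, of which SNORA61 alone was called under every alternative. BRD2, a target of OTX015 at the protein level, rose by 0.58 ± 0.13 (adjusted p = 0.0035) among 21 BET and P-TEFb genes. HEXIM1 was not well above background in either group and is given no fold.

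No member passed among 18 BCL2 family genes (the nearest by size being PMAIP1 at 0.45, adjusted p = 0.1), 33 core histone genes (H2AC20, 0.49, adjusted p = 0.14), 24 replication genes (E2F2, -0.46, adjusted p = 0.14), 26 mitosis genes (TPX2, -0.3, adjusted p = 0.33), 16 germinal centre genes or 12 reference genes (PPIA, -0.36, adjusted p = 0.3). PIM1, a kinase induced by cytokines, was at -0.18 (adjusted p = 0.64). No marker of other cell types passed either. The summed level of 5 T and NK cell markers was 238 to 251 with DMSO and 238 to 270 without treatment, that of 11 myeloid markers 1100 to 1440 with DMSO and 1160 to 1180 without, and that of 4 stromal and epithelial markers 656 to 729 with DMSO and 617 to 640 without, in linear intensity.

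**Figure D3:**
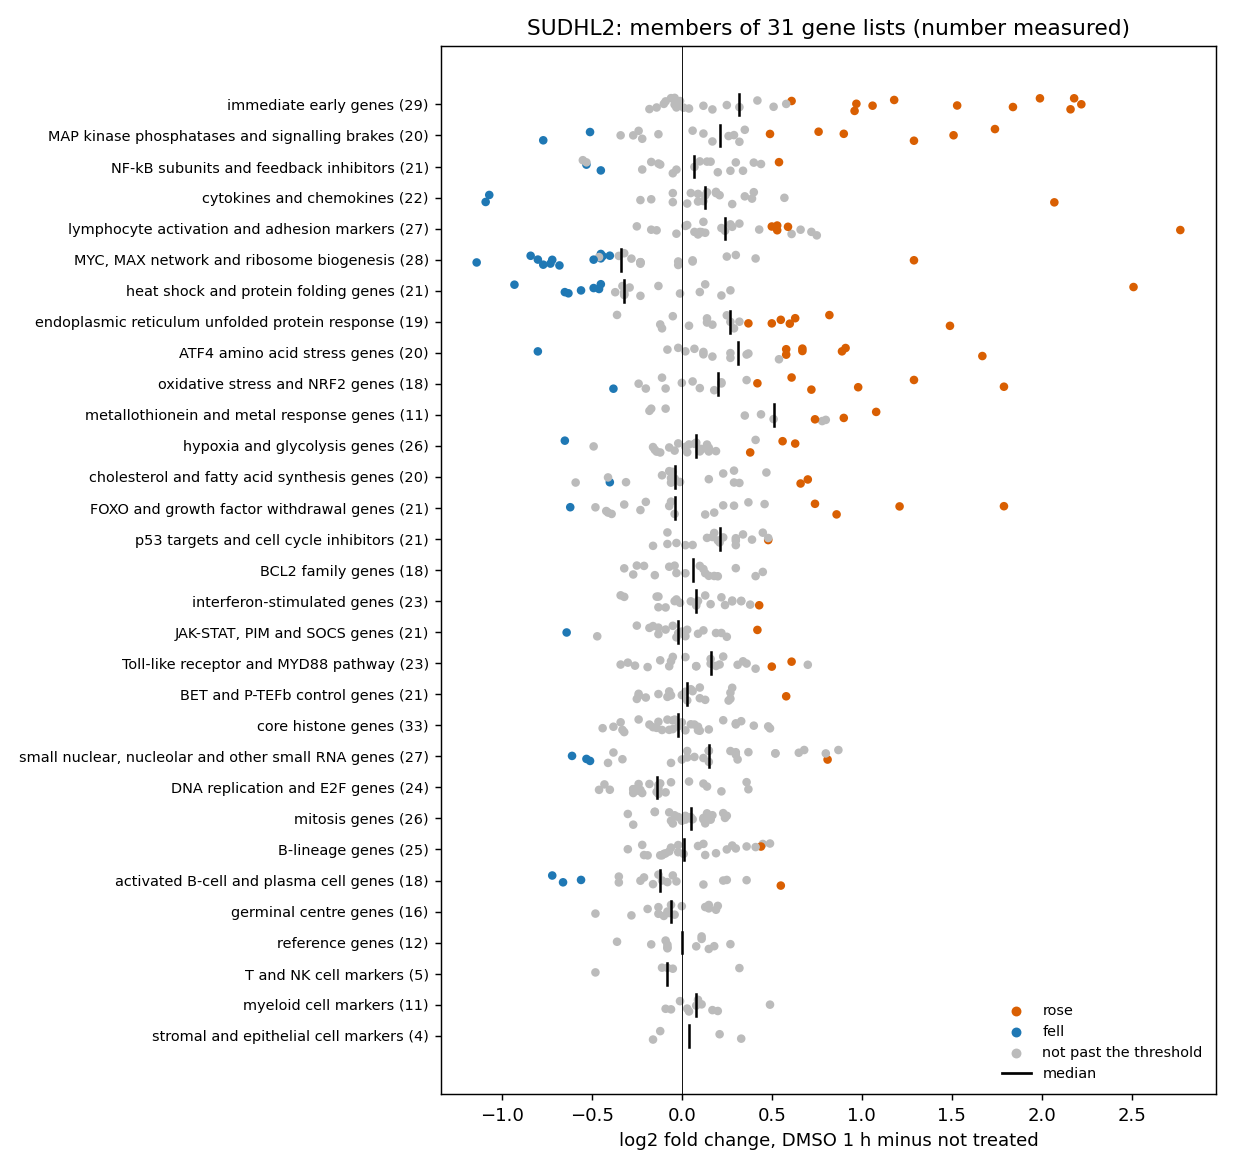
Log2 fold change, DMSO 1 h minus not treated, for every measured member of 31 gene lists (one row each, with the number measured). Orange points rose, blue points fell, grey points did not pass and black bars are list medians, which run from -0.34 (MYC, MAX network and ribosome biogenesis) to 0.51 (metallothionein and metal response genes).

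Levels on the DMSO arrays of later times are given beside those of 1 h. The labels give no time for the not treated arrays, so whether time in culture was matched is not known. The DMSO 2 h and 12 h comparisons use the same not treated arrays as the 1 h comparison, so their values are set side by side without a test of likeness. Against not treated arrays, 820 genes were called at 1 h (6.12%), 1860 at 2 h (13.9%, with 7.91% higher and 5.97% lower) and 3072 at 12 h (22.9%, with 12.1% higher and 10.8% lower). Over the 469 genes that rose at 1 h the median was 0.59 at 2 h and 0.12 at 12 h, and over the 351 that fell it was -0.55 at 2 h and 0.02 at 12 h. CD69 averaged 6.57 without treatment, 9.34 at 1 h, 8.46 at 2 h and 6.66 at 12 h, and TNF averaged 7.71, 9.78, 9.71 and 8.44 over the same order. HMOX1 averaged 8.44 without treatment, 9.73 at 1 h, 10.09 at 2 h and 6.88 at 12 h. MYC averaged 10.2 without treatment, 9.06 at 1 h, 9.01 at 2 h and 11.58 at 12 h, and IL6 7.69, 6.6, 6.62 and 8.88 over the same order. At 12 h CD69 was 0.1 above the not treated arrays and TNF still 0.73 above them, HMOX1 lay below them, and MYC and IL6 lay above them by 1.38 and 1.2. The 12 h arrays may differ from the others in growth as well as in exposure, which was not tested.

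**Figure D4:**
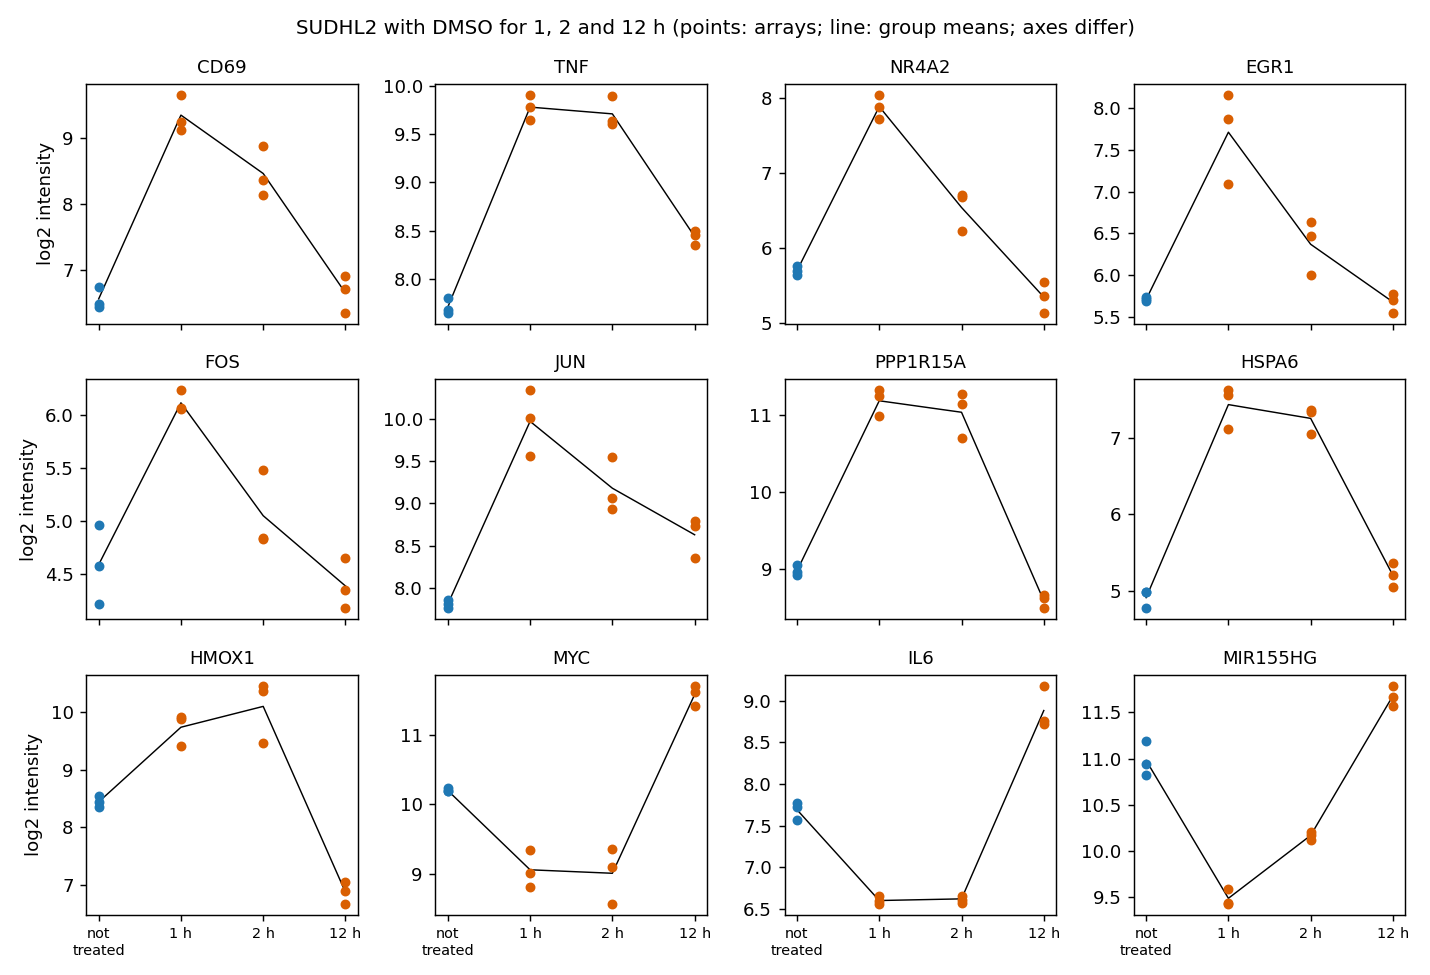
Log2 intensity of 12 genes in SUDHL2 without treatment (blue) and after 1, 2 and 12 h with DMSO (orange). Points are arrays, lines join group means and the y axes differ. NR4A2, EGR1 and FOS are lower at 2 h than at 1 h, whereas TNF, PPP1R15A and HSPA6 are close at both times.

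The change between 1 h and 2 h was tested directly: 197 genes differed (1.47% of those tested), 120 higher at 2 h (0.896%) and 77 lower (0.575%). NR4A2 averaged 6.54 at 2 h and 7.88 at 1 h (-1.34 ± 0.18, adjusted p = 8.7e-06), and EGR1 averaged 6.37 at 2 h and 7.71 at 1 h (-1.33 ± 0.32, adjusted p = 0.019). DUSP1 was lower at 2 h by 1.47 ± 0.33 (adjusted p = 0.0096), back to 7.27, against 7.44 without treatment. DDIT4, already lower at 1 h, was lower again at 2 h (-1.83 ± 0.18, adjusted p = 2.4e-08), as were the lipid droplet gene HILPDA (-1.74 ± 0.2, adjusted p = 3.1e-07) and the cAMP phosphodiesterase PDE4B (-1.65 ± 0.23, adjusted p = 1.5e-05). SLC30A1 was higher at 2 h by 1.11 ± 0.18 (adjusted p = 0.00028) and GPR18, a G-protein coupled receptor of lymphocytes, by 1.76 ± 0.33 (adjusted p = 0.0018). CABYR, PRAG1, NUP98 and ZNF200 were higher at 2 h by 0.99 to 1.11. For CD69, TNF and HSPA6 the difference between the times did not pass (adjusted p = 0.48, 0.96 and 0.79). This comparison and the main one use the same DMSO 1 h arrays. The count fell to 89 and 81 without DMSO 1 h replicates 1 and 2, to 110 and 117 without DMSO 2 h replicates 2 and 3, and to 34 when only those 6 arrays were fitted, and it was 246 with the slide as a block. The call of EGR1 ended under 6 alternatives (adjusted p up to 0.18), that of PRAG1 under 3 (up to 0.13), and those of DUSP1 and NUP98 under 1 each (0.061 and 0.15).

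OTX015 arrays of the same time were set against the same not treated arrays, so their values too stand side by side without a test. In that comparison 647 genes were called (4.83%, with 2.75% higher and 2.08% lower), and the median was 0.46 over the genes that rose with DMSO and -0.46 over those that fell. EGR1 averaged 8.26 with OTX015, 7.71 with DMSO and 5.71 without treatment, and HSPA6 averaged 7.68, 7.43 and 4.91 in that order. CD69 averaged 7.13 with OTX015, 9.34 with DMSO and 6.57 without treatment, TNF 8.54, 9.78 and 7.71, and NR4A2 6.33, 7.88 and 5.7. Against not treated arrays, MYC was at -1.7 with OTX015 and -1.14 with DMSO, and MIR155HG at -1.83 and -1.5. In the untreated panel, where each line has 1 array, SU-DHL-2 read 6.9 for CD69, 9.64 for TNF, 9.22 for JUN, 10.3 for PPP1R15A, 6.02 for HSPA6 and 11 for MYC. Of these, TNF, JUN, PPP1R15A and HSPA6 lay between the means of the DMSO and the not treated arrays. Nearer the DMSO mean were TNF (9.78 with DMSO, 7.71 without treatment), JUN (9.97 and 7.81) and PPP1R15A (11.19 and 8.97). HSPA6 lay nearer the not treated mean, CD69 lay near the not treated level and MYC above both means.

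The SUDHL6 arrays, which share no sample with the SUDHL2 comparison, show which changes the other line had. In SUDHL6, 239 genes were called for DMSO 1 h against not treated (1.78%), 178 higher (1.33%) and 61 lower (0.455%). Of the 469 genes that rose in SUDHL2, 312 were positive in SUDHL6 (66.5%, against 48.8% of all genes), and 52 were called higher there, which is 11.1% of the SUDHL2 list and 29.2% of the SUDHL6 list. Of the 351 that fell, 202 were negative (57.5%, against 51.2% of all genes), and 8 were called lower, 2.28% and 13.1% of the lists. Across genes the log2 fold changes of the lines correlated at 0.16 over all genes and 0.44 over those called in SUDHL2, as a description of genes that are not independent. CD69 rose in both lines, by 2.77 in SUDHL2 and 3.48 in SUDHL6, as did JUN (2.16 and 3.08), PPP1R15A (2.22 and 1.98), FOS (1.53 as fitted and 1.94) and TNF (2.07 and 1.31). In these 5 the difference between the lines did not pass (adjusted p = 0.66, 0.33, 0.79, 0.61 and 0.069).

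**Figure D5:**
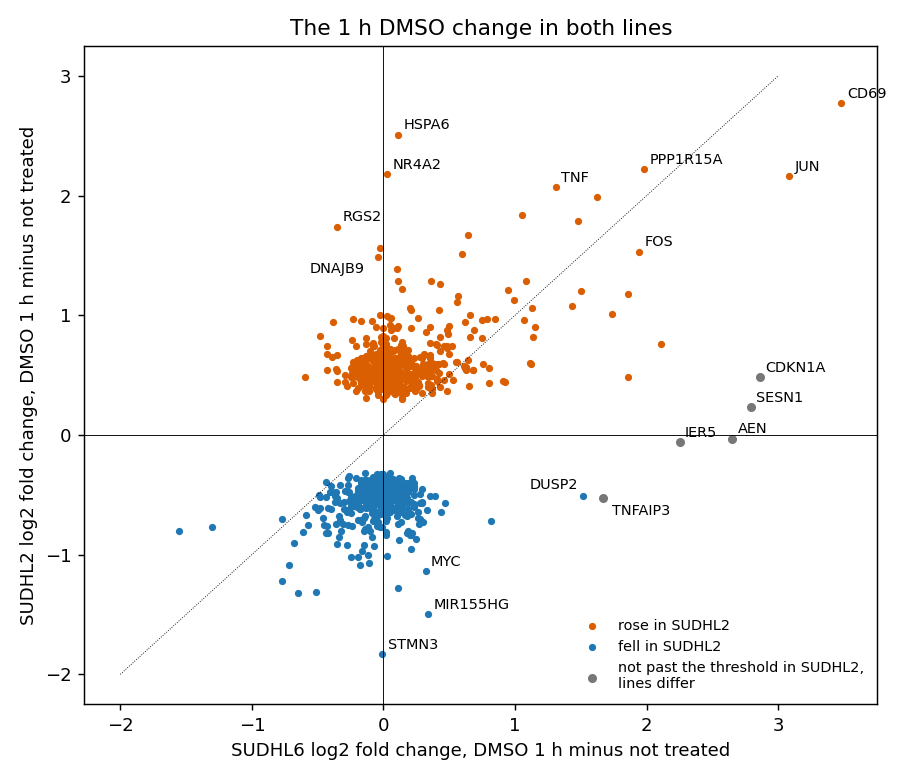
Log2 fold change, DMSO 1 h minus not treated, in SUDHL2 (y axis) against SUDHL6 (x axis) for the genes called in SUDHL2, with 5 further genes in grey whose change differed between the lines. The dotted line marks equal change. PPP1R15A (2.22 in SUDHL2, 1.98 in SUDHL6) lies near it, NR4A2 (2.18 and 0.03) lies far above it, as does HSPA6, which is at background in SUDHL6 and without treatment in SUDHL2, and AEN (-0.03 and 2.65) lies far below it.

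The change differed between the lines in 197 genes (1.47%), more positive in SUDHL2 in 90 (0.672%) and in SUDHL6 in 107 (0.799%). HSPA6 passed the test of the difference (adjusted p = 5.7e-11). It was not well above background on any of the 6 SUDHL6 arrays (5.46, 5.05 and 5.19 with DMSO, against 5.16, 5.14 and 5.08 without treatment). No size is therefore given beyond the bound in SUDHL2 of at least 4.28-fold, with the background correction used here. RGS2 read 10.68, 10.4 and 10.53 with DMSO in SUDHL6, against 11.02, 11.02 and 10.61 without, and its SUDHL2 change was larger by the same test (difference 2.08 ± 0.17, adjusted p = 2.1e-11). NR4A2 (2.15), SNAR-A1 (1.6), DNAJB9 (1.53) and NOXA1 (1.32), an activator of NADPH oxidase, were the other large differences of that sign. MYC and MIR155HG, which fell in SUDHL2, were at 0.32 and 0.34 in SUDHL6, with differences of -1.46 ± 0.31 and -1.83 ± 0.26 (adjusted p = 0.0081 and 1.1e-05).

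In the other direction, several p53 and NF-kB targets had the larger change in SUDHL6. CDKN1A (p21) read 11.99, 12.29 and 11.96 with DMSO in SUDHL6, against 9.22, 9.33 and 9.12 without treatment, while in SUDHL2 it averaged 8.72 with DMSO and 8.25 without (0.48, adjusted p = 0.11). The difference was -2.38 ± 0.25 (adjusted p = 1.6e-08). AEN, a p53-induced nuclease (-2.68 ± 0.23), SESN1, a sestrin (-2.56 ± 0.2), and IER5 (-2.31 ± 0.2) differed likewise. Of 21 p53 targets and cell cycle inhibitors, 10 rose in SUDHL6 (median 0.67) and 1 in SUDHL2 (median 0.21), and 9 differed between the lines. TNFAIP3 (A20), the NF-kB feedback inhibitor, was at -0.53 in SUDHL2 (adjusted p = 0.26) and 1.67 in SUDHL6 (difference -2.2 ± 0.37, adjusted p = 0.00046), DUSP2 at -0.51 and 1.52 (difference -2.03 ± 0.19, adjusted p = 5.4e-10), and NFKBIA at -0.03 and 1.89 (difference -1.93 ± 0.26, adjusted p = 4.3e-06). Each of the 12 largest line differences was called under every alternative that could be run, with its sign kept. The total of 197 was less stable: it was 238 with the slide as a block and between 78 and 128 in 7 of the 12 fits that left out an array of either line.

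Of the 100 genes named for DMSO 1 h, and not only for a difference between lines or times, 84 were called. Of these 84, 45 were called under all 20 alternatives, among them CD69, HSPA6, PPP1R15A, JUN, TNF, EGR1, RGS2, MYC, IL6 and STMN3. The size of the change in dim genes depended on the background correction: without it the fitted value was 1.3 for HSPA6, with NR4A2 at 1.35, EGR1 at 1.22, FOS at 0.58 and PTGDR at -0.69. Without the correction HSPA6 and FOS thus lay below the bounds given for them above. At the threshold, RRN3, TNFRSF10D and EAF1 lay just inside, with log2 fold changes of 0.45, 0.47 and 0.4, and PPP2R3C, NDUFA11 and TNFRSF13C just outside, with 0.38, -0.36 and 0.61, all at an adjusted p that rounds to 0.05. Of the called genes, 274 had several detected probes, and in 33 of the genes that rose and 21 that fell at least 1 other probe had the opposite sign.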

How the data were processed

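RNA was biotin-labelled and hybridised to single-channel Illumina beadchips, per the labels' protocols. The authors deposited linear intensity values of 47231 probes for 64 arrays, without detection p-values or control probes, and a second table whose values lie on a log2 scale; in that deposited log2 table each of the 6 arrays had a median of 6.64 and its values ranked as the intensities did (Spearman correlation 1). No label or header used here names the scanner software or the steps behind the deposited log2 values. With limma 3.58.1 in R 4.3.3, intensities were corrected for background (normexp, offset 16), brought to a common distribution across the 64 arrays (quantile) and log2-transformed. A probe counted as detected at a background p under 0.01, where the background was the lower side of the main intensity peak mirrored about it, and had to be detected on 3 or more of the 42 arrays of the treated lines. Symbols came from the platform annotation: 30113 probes had 1 symbol, 8 had several and 17110 had none. The brightest detected probe stood for each of 13399 genes. Group means of 14 groups were fitted over the 42 arrays with lmFit and eBayes with an intensity trend, and p-values were adjusted by Benjamini-Hochberg over all genes, with calls at 0.05. The line difference and DMSO 2 h minus 1 h are contrasts of the same fit. Steps were tested on simulated data.

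The genes named are the 12 largest rises and 12 largest falls among called genes whose groups do not overlap, all called members of a list (the 4 largest where over 6 were called, the largest member where none was), 14 genes of prior interest, the 6 largest differences in each direction between lines and between times, and 3 genes on each side of the threshold. The members and lists were chosen with earlier results of these data known, and a list count is a description with no test. Precision is limited by 3 arrays per group. Alternatives covered background, scaling, the filter on dim probes, the choice of probe, the arrays fitted, the slide, the replicate number and leaving out each array. The other groups of the series were used only for the shared spread and the values named.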

Additional observations from a re-analysis of the deposited data

Results flagged for a closer look

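The change with DMSO for 1 h differed between SUDHL2 and SUDHL6, by a test of the difference itself, in 33 of the 114 named genes, against 1.47% of all genes tested. Of the 114, 12 were named for the size of this difference; of the 107 named by another rule, 26 differed (24.3%), and these were mostly chosen for their change in SUDHL2, which is part of the difference. All values that follow are SUDHL2 minus SUDHL6 on the log2 scale. The change was more positive in SUDHL2 for HSPA6 (2.41), NR4A2 (2.15), RGS2 (2.08), SNAR-A1 (1.6), DNAJB9 (1.53), NOXA1 (1.32), HMOX1 (1.18), NQO1 (0.92), TRIB3 (0.89) and SRXN1 (0.67). These include chaperones, antioxidant enzymes and a target of ATF4.

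It was more negative in SUDHL2 for genes that fell there, namely MIR155HG (-1.83), STMN3 (-1.82), PRDM1 (-1.53), MYC (-1.46), PTGDR (-1.38), MYBBP1A (-1.04), IL12A (-0.97), IL6 (-0.91), SNORA73B (-0.9), HSPH1 (-0.86), MYB (-0.82), MIR503HG (-0.8) and SNORA61 (-0.69), and for DUSP2 (-2.03). HSPA6, IL6, IL12A and PTGDR were not well above background on any of the 6 SUDHL6 arrays, so a fall of IL6, IL12A or PTGDR could not have been measured there, and the sizes of all 4 differences are not exact. PRDM1 was detected on 1 of those arrays, MIR503HG on none of the 3 SUDHL6 DMSO arrays, HSPA6 on none of the SUDHL2 not treated arrays and MYBBP1A on none of the SUDHL2 DMSO arrays, so the sizes of these are uncertain too. It was also more negative for genes whose larger change was a positive one in SUDHL6: AEN (-2.68), SESN1 (-2.56), CDKN1A (-2.38), IER5 (-2.31), TNFAIP3 (-2.2), NFKBIA (-1.93), GADD45A (-1.38), E2F2 (-0.99) and PMAIP1 (-0.87).

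Probes without a gene symbol were outside the comparisons. Of 7827 such probes that were detected, 67 were higher and 166 lower with DMSO than without treatment (2.98% called), and their identity is not known here.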

How the results depend on the processing

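With 75th percentile scaling 663 genes were called lower with DMSO (1151 in all), against 351 as reported. Fitting only the arrays of the groups compared called 1434 genes (805 higher, 629 lower), and 34 for DMSO 2 h minus 1 h. The shared slide alone called 456 (275 higher, 181 lower). The replicate numbers were not used to pair the arrays in the reported fit. Deviations of same-numbered arrays correlated at 0.04, 0.06 and 0.04, against -0.07 to 0.01 for arrays of different numbers. Each array correlated best with its own number, and whether the numbers mark shared experiments was not tested. With the replicate block 1221 genes were called (684 higher, 537 lower), 388 for the line difference and 294 for DMSO 2 h minus 1 h. Leaving out 1 array gave 449 to 659 calls for DMSO 1 h, 256 to 372 higher and 173 to 287 lower (233 lower without DMSO replicate 2). It gave 78 to 171 calls for the line difference and 81 to 175 for DMSO 2 h minus 1 h. Those for the line difference were 78 without DMSO replicate 1, 128, 107 and 84 without not treated replicates 1, 2 and 3, 124 without SUDHL6 DMSO replicate 2, and 107 and 92 without SUDHL6 not treated replicates 1 and 2. Fewer arrays enter such fits; otherwise the cause was not tested. The sign turned for 3 genes that had not passed: HEXIM1 (0.11 with 75th percentile scaling, 0.05 on the shared slide, and -0.12 to 0.02 with an array left out, the highest without not treated replicate 1), IL10 (-0.13 by the mean of its probes) and NFKBIA (0.02 and 0 without DMSO replicates 1 and 2). For the 100 genes named for DMSO 1 h, 1258 of 1399 values under the other settings kept direction and side of the threshold, as did 450 of 600 with an array left out. Signal near background limits dim genes: without background correction and in the authors' deposited values IL6 was at -0.73 and -0.67, MYB at -0.72 and -0.66, and HSPA6 at 1.3 and 1.22, all still called.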
